A study of Mus musculus with 23 samples.

Results

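The collagen gene family was examined in 23 MC38 tumors. Members were all genes whose mouse symbol consists of Col, a number, the letter a and a second number, after the Ensembl identifiers of the count table had been paired with GENCODE symbols. The rule used names only and no measured value. It gave 44 genes of the 26869 identifiers in the table, and all 44 were listed there. They were grouped as 11 fibrillar collagens, 8 basement membrane collagens (Col4a1 to Col4a6, Col15a1 and Col18a1) and 25 other collagens.

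MC38 cells come from a colon carcinoma of a C57BL/6J mouse. All hosts were female F1 mice aged 8 to 12 weeks with 1 C57BL/6J parent and 1 parent from a Collaborative Cross (CC) strain, so the tumor line was held constant while the host genome varied. Cells were injected under the skin, and at a tumor size of 75 to 110 mm3 each mouse was given a single intraperitoneal dose of 200 µg of either isotype control antibody (clone 2A3) or anti-PD-1 antibody (aPD1, clone 29F.1A12), and tumors were taken 48 h later. Whether a host line counted as responder (R: CC001F1, CC002F1 and CC075F1) or non-responder (NR: CC036F1, CC079F1 and CC080F1) came from the study's account of tumor growth and not from the sample labels. There were 12 groups of host line and antibody, with 2 tumors in each apart from CC080F1 with aPD1, which had 1 tumor. This gave 12 R tumors and 11 NR tumors. All p-values measure the spread between these tumors. R or NR is a trait of the host line, and the main class tests treat the tumors of a line as independent. An exact two-sided test of 3 lines against 3 cannot give a p below 0.1.

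RNA-seq libraries held 14494014 to 71868253 estimated counts. Of these, 6 libraries had at most 18354585 counts (2 from R lines and 4 from NR lines) and 17 had at least 37242363. Both members of every replicate pair differed by more than counting noise, with 9.16 to 123 chi-square units per degree of freedom. The labelled tumor was checked with its markers: the MC38-associated gene Shisal2b had 460.1 to 1138 normalized counts per tumor, while the epithelial keratins Krt8 and Krt18 were at 0 in 2 and 7 tumors. Markers of skin and cartilage, tissues that make collagens of their own, were mixed. Of the skin list Dsg3 was at 0 in 21 tumors, Krt1 and Lor in 19 each, Krt5 in 11 and Krt14 in 2, while Krt10 was at 0 in none, and the 6 summed to 2.06 to 5.95 TPM. Of the cartilage list Matn1 was at 0 in 21 tumors, Acan in 17, Hapln1 in 9 and Comp in 4, while Sox9 had 2773 to 5043 normalized counts, and the 5 summed to 39.3 to 70.5 TPM. These are whole tumors, and in such bulk samples fewer cells of a type and less RNA per cell cannot be told apart.

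Collagens are extracellular proteins built from 3 chains wound into a triple helix, and a collagen type can combine chains from several genes. Fibrillar collagens form the cable-like fibers of connective tissue, basement membrane collagens form sheets beneath epithelium and endothelium, and the others form beaded filaments, anchoring fibrils or links on fiber surfaces, or span the cell membrane. In solid tumors fibroblasts and vessel-associated cells are known as main sources of collagen, and cancer cells can make collagens too.

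The level of each gene was first expressed per length, as TPM (counts per kilobase of the longest protein-coding transcript, scaled to the same sum in every tumor), since only such values can be set side by side between genes. All 44 members together made up 0.334% of the TPM on average (0.180% to 0.504% per tumor). Within the family, the fibrillar class held 39.0% on average (29.6% to 45.3%), the basement membrane class 9.75% (6.00% to 16.8%) and the other class 51.2% (45.2% to 56.3%). Just 5 genes carried 72.9% of the collagen TPM: Col3a1, Col6a1, Col6a2, Col16a1 and Col6a3.

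Among fibrillar collagens Col3a1, the chain of collagen III, had the highest level of the family, at a mean of 929.5 TPM (266.5 to 1619 over 23 tumors). Collagen V, which co-assembles with other fibrils and limits their width, followed with Col5a1 at 141.7 TPM and Col5a3 at 123.4 TPM. The collagen I chains, usually the most abundant collagen of connective tissue, had lower levels here: Col1a1 had a mean of 64.0 TPM (11.4 to 198) and Col1a2 of 50.2 TPM (2.71 to 157.9). The cartilage collagens Col2a1, Col11a1, Col9a1, Col9a2 and Col10a1 each stayed below 0.5 TPM in every tumor. Of their partner chains, Col11a2 had a mean of 0.623 TPM (0.126 to 1.00) and Col9a3 of 4.30 TPM (2.57 to 5.88).

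Among basement membrane collagens the ubiquitous collagen IV chains Col4a1 and Col4a2 led with 171.1 and 100.6 TPM. Col18a1, whose C-terminal part is known as endostatin, had 16.4 TPM. The collagen IV chains of specialized membranes such as that of the kidney glomerulus lay far lower, with Col4a5 at 5.99 TPM and Col4a3, Col4a4 and Col4a6 at 0.0435, 0.173 and 0.0522 TPM.

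In the other class the collagen VI chains Col6a1 (656.4 TPM), Col6a2 (472.6 TPM) and Col6a3 (205.5 TPM), which form beaded microfilaments around cells, stood beside Col16a1 (206.6 TPM), a fibril-associated collagen. Col7a1, the anchoring fibril collagen that ties skin epithelium to the dermis, had 84.0 TPM. With all annotated exons taken as the gene's length, Col6a1 ranked first and Col3a1 second, and the first 10 genes were otherwise the same apart from a swap of Col16a1 and Col6a3.

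In normalized counts (estimated counts divided by DESeq2 size factors, used from here on), 21 members had a mean of 100 or more, 11 had a mean of 10 to under 100, and 12 had a mean under 10. Col19a1 was at 0 in 21 tumors, had too few counts for the fits and was not tested; 43 members were fitted. Differences and levels in the last 12 genes rest on few reads.

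**Figure D1:**
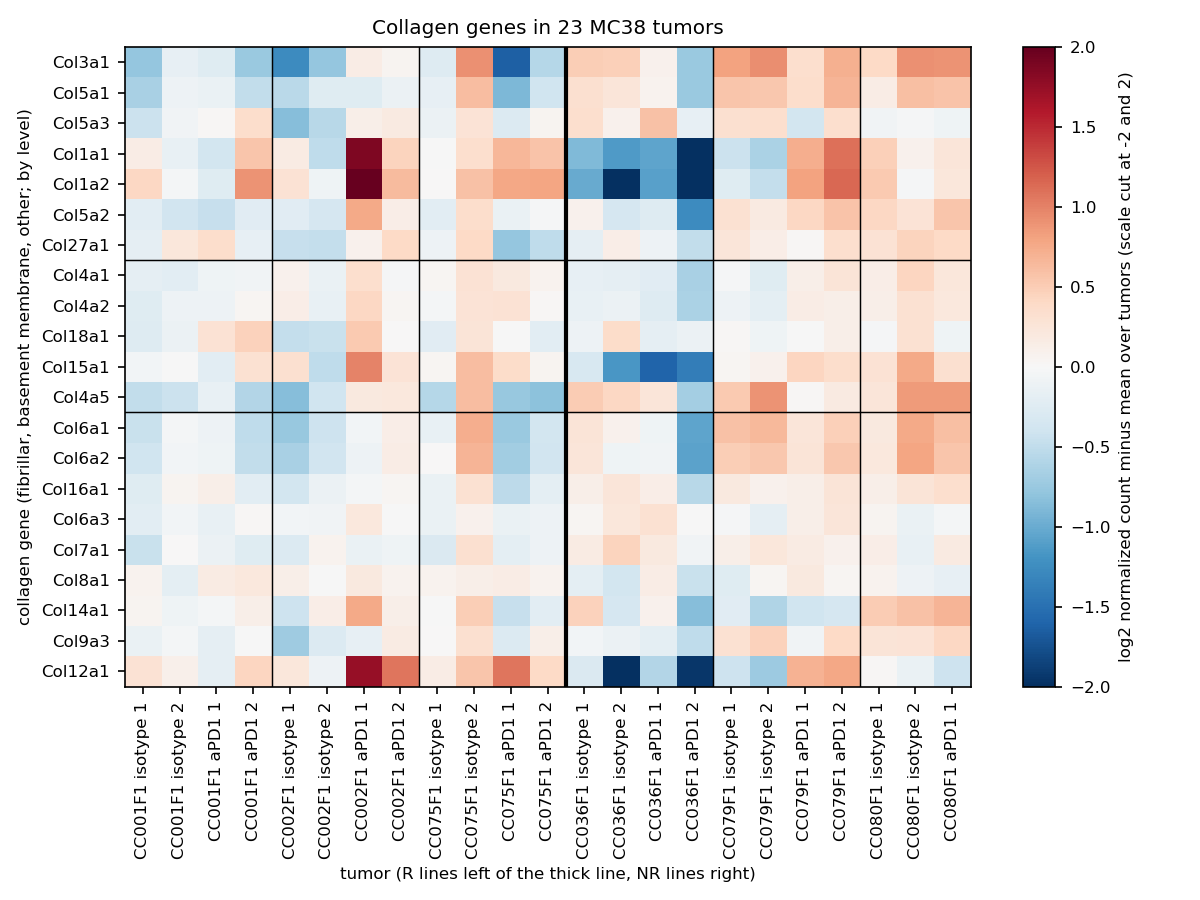
Normalized counts of the 21 collagen genes with a mean of 100 or more (rows, in 3 classes) in 23 tumors (columns, R lines left of the thick line), as log2 difference from the gene's own mean, with colors cut at -2 and 2. Col1a1, Col1a2, Col12a1 and Col15a1 are blue in the 4 CC036F1 tumors, and the single tumor CC075F1 isotype 2 is red for Col3a1, Col5a1, Col6a1 and Col6a2.

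Several members are neighbours in the genome (GENCODE, GRCm38). Col4a1 (chr8:11198423-11312826, minus strand) and Col4a2 (chr8:11312805-11449287, plus strand) are read in opposite directions from starts that lie 21 bases apart, and the gene models overlap by 22 bases. Whether the counting used strand is not given in the sources used here. Col4a6 (chrX:141165403-141474076, minus strand) and Col4a5 (chrX:141475385-141689234, plus strand) are also read away from each other, but with 1308 bases between the gene models. Col3a1 (chr1:45311538-45349706, plus strand) and Col5a2 (chr1:45374321-45503282, minus strand) end towards each other, 24614 bases apart. Col6a2 (chr10:76595762-76623630) and Col6a1 (chr10:76708792-76726168) lie one after the other on the minus strand.

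Promoter windows are shown for 4 of these genes: the head-to-head collagen IV pair, whose counts moved together, and Col1a2 and Col3a1, chains of the main fibril collagens, whose counts did not. Each window is from RefSeq (GRCm38.p6) and runs from 250 bases before the annotated start through the first 50 transcribed bases, 5′ to 3′ on the gene's own strand. Capitals mark matches on either strand to CCAAT (the CCAAT box), GGGCGG (the GC box bound by Sp1) and TATAAA (the TATA box). The windows are Col4a2 (chr8:11312555-11312854, plus strand), Col4a1 (chr8:11312777-11313076, minus strand), Col1a2 (chr6:4505368-4505667, plus strand) and Col3a1 (chr1:45311288-45311587, plus strand). The RefSeq start of Col1a2 lies inside the GENCODE gene (chr6:4504814-4541544).
Col4a2: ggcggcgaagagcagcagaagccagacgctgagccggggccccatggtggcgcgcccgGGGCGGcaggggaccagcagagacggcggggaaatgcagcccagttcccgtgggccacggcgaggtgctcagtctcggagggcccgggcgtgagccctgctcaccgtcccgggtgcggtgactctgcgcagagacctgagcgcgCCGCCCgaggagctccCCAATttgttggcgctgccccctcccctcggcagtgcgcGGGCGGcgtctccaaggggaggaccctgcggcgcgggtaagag
Col4a1: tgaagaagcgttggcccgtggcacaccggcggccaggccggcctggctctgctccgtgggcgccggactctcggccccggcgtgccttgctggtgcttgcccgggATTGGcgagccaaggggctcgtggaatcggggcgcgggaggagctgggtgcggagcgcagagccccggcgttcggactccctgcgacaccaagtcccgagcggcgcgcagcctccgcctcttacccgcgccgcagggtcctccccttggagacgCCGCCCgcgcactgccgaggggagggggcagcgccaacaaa
Col1a2: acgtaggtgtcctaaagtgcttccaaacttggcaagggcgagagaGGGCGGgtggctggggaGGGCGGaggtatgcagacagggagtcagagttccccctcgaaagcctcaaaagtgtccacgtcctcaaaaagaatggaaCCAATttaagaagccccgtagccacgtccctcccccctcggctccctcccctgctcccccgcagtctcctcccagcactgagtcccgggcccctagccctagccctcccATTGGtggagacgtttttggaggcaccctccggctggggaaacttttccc
Col3a1: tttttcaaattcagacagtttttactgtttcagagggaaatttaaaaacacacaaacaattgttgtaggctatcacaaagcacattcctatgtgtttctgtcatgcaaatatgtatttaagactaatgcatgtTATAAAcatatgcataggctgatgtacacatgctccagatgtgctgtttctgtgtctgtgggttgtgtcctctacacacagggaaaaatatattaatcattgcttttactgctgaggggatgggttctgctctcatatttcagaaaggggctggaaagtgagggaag

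The Col4a1 and Col4a2 windows share 78 bases (chr8:11312777-11312854), so a GC box in that stretch appears in both, once on each strand. The Col4a2 window holds 1 CCAAT box and 3 GC boxes, Col4a1 holds 1 and 1, and Col1a2 holds 2 and 2. The Col3a1 window holds 1 TATA box and neither of the other motifs. RefSeq windows were at hand for 35 of the 44 members (38 windows). A GC box was present in 23 of these 38 windows (60.5%) beside 35.6% of 32817 windows of all genes. The CCAAT box was in 13 member windows (34.2%, beside 37.4%) and the TATA box in 5 (13.2%, beside 13.6%). These matches describe the letters of the windows and were not tested as binding sites.

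Chains that assemble into one molecule were compared as count ratios within each tumor, a measure that does not depend on depth scaling. Col4a1 to Col4a2 held nearly still: the ratio was 1.62 at its lowest, 1.76 at the median and 1.91 at its highest over 23 tumors. Col6a1 to Col6a2 was as even, from 1.10 through 1.21 to 1.36. The log2 ratio had an SD of 0.07 for both pairs, whereas each single chain had an SD of 0.23 to 0.51.

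Col6a1 to Col6a3, partners in the same collagen VI molecule, ranged from 0.594 to 2.27, since Col6a3 itself varied little (SD 0.14 on the log2 scale, beside 0.51 for Col6a1). Col5a1 to Col5a2 ranged from 4.59 to 13.7 with a median of 9.82. Col8a1 to Col8a2 was above 100 in every tumor (129 to 1035), with a Col8a2 mean of 13.8 normalized counts, and was not tested.

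For collagen I, the Col1a1 to Col1a2 ratio lay between 1.15 and 1.67 in 22 tumors and was 10.1 in CC036F1 isotype 2. That tumor had 2538 normalized counts of Col1a1, in the range of the other CC036F1 tumors (1223 to 3032), and 251.9 of Col1a2, the lowest of all 23. Per kilobase the median ratio was 1.27, while the textbook collagen I molecule holds more Col1a1 chains than Col1a2 chains.

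In tests on log2 ratios, 5 pairs were compared by class (permutation of class over tumors, two-sided, 100000 resamples) and by antibody within host line (exact permutation, 23328 arrangements), with p-values adjusted over these 10 tests. By class, 2 of the 10 passed. Col1a1 to Col1a2 was lower in R tumors by a mean log2 difference of -0.40 (permutation p = 0.00131, adjusted p = 0.0131), and Col5a1 to Col5a2 by -0.42 (permutation p = 0.00885, adjusted p = 0.0442). Without CC036F1 isotype 2 the first became -0.15 (adjusted permutation p = 0.0453) and the second -0.38 (adjusted permutation p = 0.0891). Leaving out any 1 of 13 other tumors also left 1 of the 10 tests past the threshold. Over the 23 single omissions the Col5a1 to Col5a2 call was lost in 15 and the Col1a1 to Col1a2 call in none. In 1 omission the Col6a1 to Col6a3 ratio passed by class. None passed within the 17 deep libraries. Permuting tumors treats them as independent, and 3 lines against 3 lines cannot give an exact two-sided p below 0.1. No ratio passed by antibody (adjusted exact permutation p from 0.189 to 0.846).

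**Figure D2:**
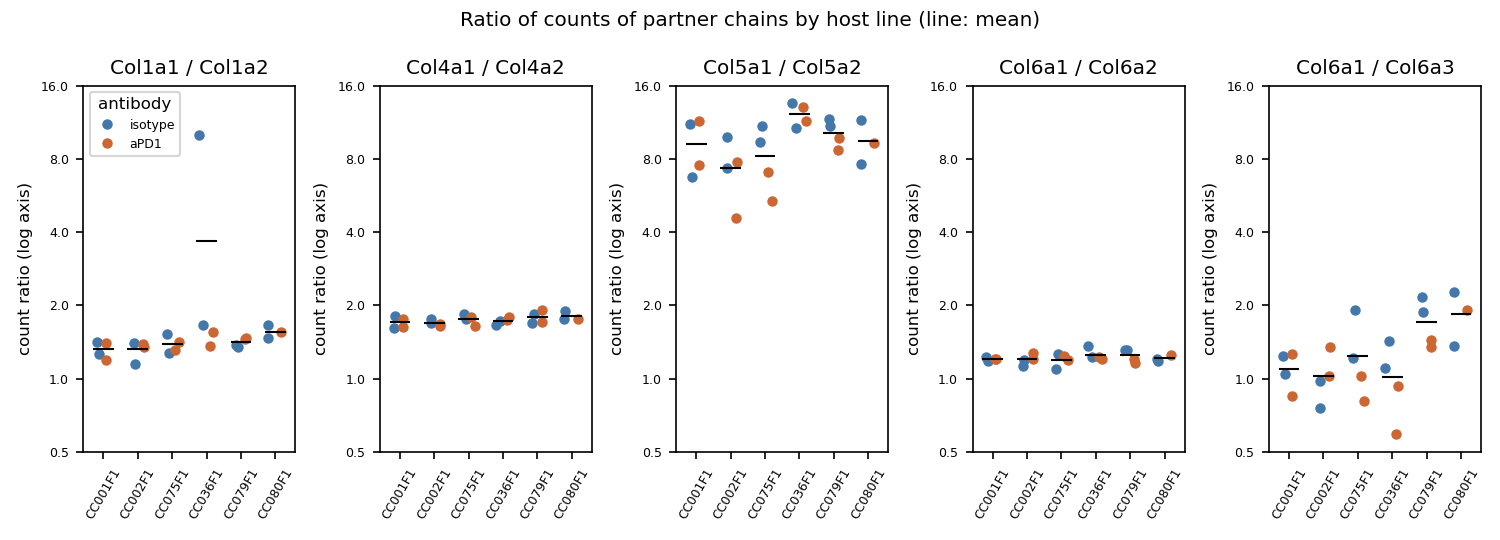
Ratio of the counts of partner chains (log axis) in every tumor, by host line; points are tumors colored by antibody and lines are means. Col4a1 to Col4a2 and Col6a1 to Col6a2 stay within 1.10 to 1.91, while the 10.1 of CC036F1 isotype 2 stands alone for Col1a1 to Col1a2.

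Levels of pairs of genes across the 23 tumors were also correlated for 7 relations, picked with earlier results known. For partner chains these use the same counts as the ratios and are not separate support. The p-values are adjusted over these 7 only and do not allow for the picking. Tumors of one line are not fully independent, so the correlation of deviations from the line and antibody mean is given as well. Col6a1 and Col6a2 had a Pearson r of 0.99 and Spearman rho of 0.97 (permutation p = 1e-05 each, the smallest possible, adjusted 1.17e-05), 0.99 without the 2 tumors farthest from the median, and 0.99 within groups. Col4a1 and Col4a2 had r = 0.96 and rho = 0.95 (permutation p = 1e-05 each, adjusted 1.17e-05), 0.94 without the 2 farthest tumors and 0.90 within groups.

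Col3a1 followed Col6a1, with r = 0.94 and rho = 0.96 (permutation p = 1e-05 each, adjusted 1.17e-05), 0.95 without the 2 farthest and 0.92 within groups. It also followed the fibroblast marker Pdgfra, which encodes platelet-derived growth factor receptor alpha, with r = 0.95 and rho = 0.94 (permutation p = 1e-05 each, adjusted 1.17e-05), 0.93 without the 2 farthest and 0.97 within groups. Col1a2 followed Postn, which encodes the fibroblast matrix protein periostin, with r = 0.95 and rho = 0.84 (permutation p = 1e-05 each, adjusted 1.17e-05), 0.86 without the 2 farthest and 0.96 within groups. Col1a1 and Col1a2 had r = 0.87 and rho = 0.98 (permutation p = 1e-05 each, adjusted 1.17e-05), 0.85 without the 2 farthest and 0.69 within groups.

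Between Col1a2 and Col3a1 no relation was detected: r was -0.11 (permutation p = 0.623) and rho -0.14 (permutation p = 0.518, adjusted p the same as the raw values), with -0.18 without the 2 farthest tumors and 0.06 within groups. In the 17 deep libraries alone the r of the 7 relations ranged from -0.10 for this pair to 0.99.

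The first comparison between groups asked which collagens differed between tumors in R and NR host lines. With both antibodies in the fit, 5 of 38 members with an adjusted p passed the threshold of 0.05 (13.2% of these members, beside 14.4% of all 17643 genes tested). Of the 5, 4 were lower in R tumors (6.78% of all genes were called lower) and 1 was higher (7.66% of all genes). The share called was near that of all genes, and the median log2 difference of the members was 0.01, beside -0.0004 for all genes tested. By class, 2 of 11 fibrillar, 1 of 8 basement membrane and 2 of 19 other collagens with an adjusted p were called. At an unadjusted p under 0.05 there were 12. With edgeR there were 11 of 43 members at that level, beside 5706 of all 26342 genes.

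Col3a1 had 25657 normalized counts at its lowest, 59856 at the median and 149509 at its highest in the 12 R tumors. In the 11 NR tumors it had 47177, 111849 and 151537. The groups overlapped, mainly through the R tumor CC075F1 isotype 2 (149509, with the next R tumor at 87529) and the NR tumor CC036F1 aPD1 2 (47177, with the next NR tumor at 84408). The fitted log2 difference, R minus NR, was -0.82 (SE 0.24, adjusted p = 0.00899 with DESeq2), or 0.565 times the NR level.

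Col5a1, the collagen V chain that helps to start fibrils, had 10526, 16555 and 29781 normalized counts in R tumors (lowest, median and highest) and 11672, 24936 and 31129 in NR tumors. The same 2 tumors were the extremes, the highest of the R lines and the lowest of the NR lines. The log2 difference was -0.57 (SE 0.15, adjusted p = 0.00336). Its partner chain Col5a2 differed by -0.21 (SE 0.18, adjusted p = 0.513).

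Col4a5, a collagen IV chain encoded on the X chromosome, had 346.6, 456.0 and 965.6 normalized counts in R tumors and 391.5, 840.6 and 1168 in NR tumors. CC075F1 isotype 2 was again the highest R tumor and CC036F1 aPD1 2 the lowest NR tumor. The log2 difference was -0.67 (SE 0.17, adjusted p = 0.00223), the smallest adjusted p of the family. Its genomic neighbour Col4a6 had a mean of 5.99 normalized counts and a difference of 0.14 (SE 0.66).

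Col7a1 had 9712, 12190 and 16539 normalized counts in R tumors and 11987, 14893 and 18028 in NR tumors. The groups overlapped, and the difference was small beside those above: a log2 difference of -0.25 (SE 0.07, adjusted p = 0.0081), or 0.840 times.

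Col20a1, a fibril-associated collagen of low level, was the 1 member called higher in R tumors. It had 6.93, 19.2 and 40.1 normalized counts in R tumors and 0, 8.11 and 14.2 in NR tumors, with a log2 difference of 1.18 (SE 0.37, adjusted p = 0.0138). The values overlapped between 6.93 and 14.2 normalized counts, and the gene's total was 14.4 on average.

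**Figure D3:**
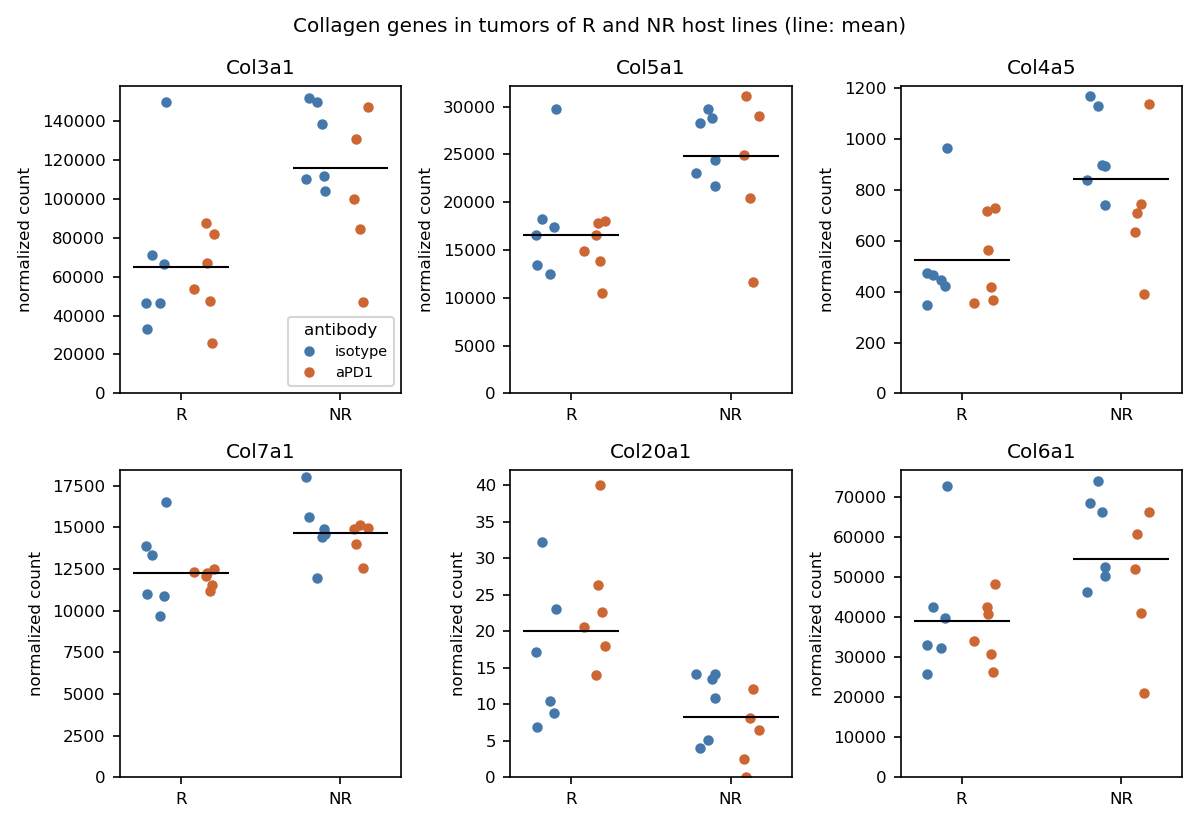
Normalized counts of Col3a1, Col5a1, Col4a5, Col7a1, Col20a1 and Col6a1 in tumors of R and NR lines; points are tumors colored by antibody, lines are group means and the axes start at 0. For Col3a1, Col5a1, Col4a5 and Col6a1, 1 isotype tumor of the R lines (CC075F1 isotype 2) lies at the height of the NR tumors.

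The collagen VI chains lay on the same side as Col3a1 without passing: the log2 differences were -0.46 for Col6a1 (SE 0.18, adjusted p = 0.0616), -0.43 for Col6a2 (SE 0.17, adjusted p = 0.0774) and -0.11 for Col6a3 (SE 0.06, adjusted p = 0.19). Col16a1 differed by -0.22 (SE 0.09, adjusted p = 0.0777). On the other side, Col12a1, which decorates collagen I fibers, had 577.1, 831.9 and 2200 normalized counts in R tumors and 96.4, 493.7 and 1118 in NR tumors. Its log2 difference was 0.80 (SE 0.30) with an adjusted p of 0.0502. The collagen I chains differed by 0.46 (Col1a1, SE 0.30, adjusted p = 0.342) and 0.67 (Col1a2, SE 0.37, adjusted p = 0.229), and Col8a1 by 0.16 (SE 0.07, adjusted p = 0.0783).

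Host line is the unit that carries the R or NR label. Taken as means of normalized counts, the 3 R lines all lay on one side of the 3 NR lines for 10 of 38 members, beside 25.7% of all genes tested: 4 were higher and 6 lower in R lines. Col3a1, Col5a1, Col4a5 and Col7a1 were among the lower and Col20a1 among the higher. With means of log2 values the count was 13, beside 25.5% of all genes, and included Col12a1, whose means of normalized counts overlapped. With the counts summed per line and antibody, Col3a1 (adjusted p = 0.0418), Col5a1 (0.00405), Col4a5 (0.00863) and Col7a1 (0.000589) remained past the threshold and Col20a1 did not (0.0877). These sums still give each line a value for each antibody, so lines are not single units in that fit. When limma treated host line as a random term, Col3a1, Col5a1 and Col7a1 remained, Col4a5 (adjusted p = 0.0742) and Col20a1 (0.0918) did not, and Col12a1 was added. With edgeR, 4 members passed and Col20a1 did not (0.0611). The shares of all genes called were 10.4% with summed counts, 6.16% with limma, 6.7% with edgeR and 9.83% in the deep libraries. In the 17 deep libraries Col7a1 remained (adjusted p = 0.0199), while Col3a1 (-0.69, 0.178), Col5a1 (-0.47, 0.126), Col4a5 (-0.50, 0.119) and Col20a1 (0.85, 0.158) did not. With depth class as a term in the fit of all 23 tumors all 5 passed, with adjusted p from 0.00466 to 0.0283.

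Single tumors moved the count. It was 8 without CC075F1 isotype 2 or CC036F1 aPD1 2, with Col6a1, Col6a2 and Col16a1 added in both cases, beside 16.4% and 14.4% of all genes. It was also 8 without CC001F1 aPD1 1 or CC079F1 aPD1 1, beside 15.6% and 13.4% of all genes. Without all tumors of host line CC036F1, chosen after its tumors were seen to stand apart, 9 members were called, beside 10.9% of all genes, and Col7a1 was lost (adjusted p = 0.0553).

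In isotype tumors alone, 1 of 25 members with an adjusted p passed, beside 5.53% of all genes (2.29% higher and 3.24% lower). This was Col4a5. Its R tumors had 446.3 and 465.7 (CC001F1), 346.6 and 474.3 (CC002F1) and 423.1 and 965.6 (CC075F1) normalized counts. Its NR tumors had 893.2 and 840.6 (CC036F1), 897.6 and 1168 (CC079F1) and 740.1 and 1129 (CC080F1). All NR tumors lay above 5 of the 6 R tumors, and CC075F1 isotype 2 lay among them. Col4a5 had a log2 difference of -0.86 (SE 0.20, adjusted p = 0.00245). Without CC075F1 isotype 2 the share of all genes called rose to 12.4%, and the count of members became 11: Col3a1, Col5a1, Col5a2, Col5a3, Col27a1, Col4a5, Col18a1, Col6a1, Col6a2, Col7a1 and Col16a1. Without CC036F1 isotype 2 it was 3 (4.1% of all genes), Col4a5, Col5a2 and Col12a1. Col4a5 no longer passed in the deep libraries (adjusted p = 0.368) or without host line CC036F1 (0.0663). The shares of all genes called in these 2 settings were 0.222% and 2.48%. With edgeR none of 43 passed, beside 0.122% of all genes, and 12 had an unadjusted p under 0.05, beside 3681 of all 24538 genes. With the replicate number as a block the count was 4, beside 6.93% of all genes, with Col3a1, Col5a1 and Col16a1 added. The numbers did not pair the tumors.

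In aPD1 tumors alone, 3 of 36 members with an adjusted p passed, beside 7.93% of all genes (5.94% higher and 1.99% lower). Col7a1 had 12289, 11209, 12091, 12529, 11534 and 12323 normalized counts in the R tumors and 15147, 12584, 14893, 14029 and 14968 in the NR tumors, so the groups did not overlap. Col5a1 had 17784, 13838, 16573, 18034, 10526 and 14867 in the R tumors and 20494, 11672, 24936, 31129 and 29057 in the NR tumors, where CC036F1 aPD1 2 alone lay among the R tumors. Col20a1 had 13.97 to 40.06 in the R tumors and 0 to 12.1 in the NR tumors, without overlap at these low counts. The log2 difference of Col7a1 was -0.26 (SE 0.06, adjusted p = 0.00156), that of Col5a1 -0.62 (SE 0.20, adjusted p = 0.0336) and that of Col20a1 1.87 (SE 0.53, adjusted p = 0.00956). The count was 1 without CC001F1 aPD1 2 (5.96% of all genes), with Col7a1 left, and 6 without CC036F1 aPD1 2 (7.3% of all genes), with Col3a1, Col6a1 and Col6a2 added. The Col5a1 call was lost in 12 of 21 alternatives. Among them were 7 of 11 single tumors left out (both of CC001F1, both of CC075F1, both of CC079F1 and the 1 of CC080F1, with adjusted p from 0.0653 to 0.153), the stricter count filter (0.0685), the replicate block (0.0509), the deep libraries (0.23) and limma (0.362). With edgeR only Col7a1 of 43 passed, and with limma no member did. The shares of all genes called by these tools in aPD1 tumors are not given here. The isotype and aPD1 comparisons use separate tumors, and the difference between them was tested only as the interaction given with the antibody results.

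Some cell markers also differed between R and NR tumors. Over all tumors, 3 of 8 fibroblast markers passed the same test (37.5%, beside 14.4% of all genes). Pdgfra (log2 difference -0.51, SE 0.15) and Dcn (-0.26, SE 0.10) were lower in R tumors, and Thy1 (0.74, SE 0.20) was higher. The study itself used Thy1, together with Cd8a, to mark cytotoxic T cells in MC38 tumors. The list was split, with 4 markers above 0 and 4 below and a median log2 difference of -0.03. The summed level of the 8 ranged from 665.8 to 1243 TPM in R tumors and from 745.4 to 1347 TPM in NR tumors, and none was at 0 in any tumor. Of 4 leukocyte markers, 3 (75%) were higher in R tumors (Ptprc 0.77, Adgre1 0.43 and Cd3e 1.47). That list summed to 900.2 to 3353 TPM in R and 1014 to 1966 TPM in NR tumors. Of 6 endothelial markers Pecam1 and of 6 pericyte markers Acta2 were higher in R tumors (16.7% of each list). No marker of the adipocyte, skeletal muscle, skin, cartilage, Schwann cell or epithelial lists was called over all tumors. In aPD1 tumors alone, 4 of 5 skeletal muscle markers (Acta1, Ckm, Mybpc2 and Atp2a1) were higher in R (80%, beside 7.93% of all genes called). That list had a median log2 difference of 5.91 and summed levels of 0.470 to 370.3 TPM in R and 0.314 to 8.11 TPM in NR tumors. The adipocyte marker Adipoq was lower in R in aPD1 tumors, with list sums of 21.1 to 51.1 TPM in R and 7.30 to 106 TPM in NR tumors. Thy1, Acta2, Pecam1, Ptprc, Cd3e and Adgre1 were higher in R in aPD1 tumors, and in isotype tumors Dcn was lower and Ptprc higher. The part of these cells in the collagen results was not tested.

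The next comparison asked whether the 6 host lines differed, whatever their class, with antibody in the fit. Among members with an adjusted p, 11 of 40 passed (27.5%, beside 16% of all 19192 genes tested). By class these were 4 of 11 fibrillar (Col1a1, Col1a2, Col5a1 and Col5a2), 3 of 8 basement membrane (Col4a1, Col4a2 and Col15a1) and 4 of 21 other collagens (Col9a3, Col12a1, Col13a1 and Col14a1). With edgeR the count was 7, and 7 also passed in the deep libraries, where Col5a1 (adjusted p = 0.459), Col5a2 (0.169), Col9a3 (0.413) and Col14a1 (0.161) did not. The shares of all genes called in these settings are not given here.

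The collagen I chains were low in the CC036F1 tumors. Col1a2 had 1819 and 251.9 normalized counts in the isotype tumors of CC036F1 and 1724 and 894.3 in its aPD1 tumors. In the 19 tumors of the other lines the lowest was 2629 and the highest 14581, in CC002F1 aPD1 1, so that all 4 CC036F1 tumors lay below them. The CC036F1 mean was 1172 ± 740.8 (SD, n = 4), 22% of the mean of the other tumors, and the test over lines gave an adjusted p of 0.00154.

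Col1a1 behaved alike. It had 3032 and 2538 normalized counts in the isotype tumors of CC036F1 and 2691 and 1223 in the aPD1 tumors, below the 3606 to 20278 of all other tumors. The CC036F1 mean was 32% of that of the other tumors (adjusted p over lines 0.0112).

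Col12a1 and Col15a1 were low in the same line. Col12a1 had 538.9 and 96.4 normalized counts (isotype) and 436.0 and 169.4 (aPD1), a mean 35.3% of that of the other tumors, which had 394.5 to 2200 (adjusted p = 0.0249). Col15a1, a collagen of the outer face of basement membranes around vessels and muscle, had 856.2 and 478.2 (isotype) and 353.1 and 410.9 (aPD1). Its mean was 40.6% of that of the other tumors, which had 750.6 to 2126 (adjusted p = 0.000299). For Col12a1, 2 of the CC036F1 tumors lay within the range of the others, and for Col15a1 1 did. Col13a1, a transmembrane collagen, had 13.7 to 26.1 normalized counts in CC036F1 and 18.8 to 120.5 elsewhere (adjusted p = 0.00352).

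The collagen IV pair varied less. Col4a1 had line means from 15792 ± 2315 (SD, n = 4) in CC036F1 to 23194 ± 2452 (SD, n = 3) in CC080F1 (adjusted p = 0.001), and Col4a2 from 9144 ± 1419 to 12817 ± 847.6 in the same lines (adjusted p = 0.00978). The CC036F1 means were 77.7% and 78.6% of those of the other tumors. The tumors of neighbouring lines overlapped for both genes.

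Col5a1 followed another order, with its highest means in CC079F1 (28275 ± 2553, SD, n = 4) and CC080F1 (26837 ± 4479, SD, n = 3) and its lowest in CC001F1 (15574 ± 2857, SD, n = 4), at an adjusted p of 0.0123. Col5a2 was also highest in CC080F1 (2838 ± 278.6, SD, n = 3) and CC079F1 (2769 ± 320.6, SD, n = 4) and lowest in CC036F1 (1655 ± 570.8, SD, n = 4; adjusted p = 0.0456). Col3a1 had the same 2 lines on top (130071 and 133705, beside 57997 to 88339 in the others) but did not pass this test. Col14a1, a fibril-associated collagen, was highest in CC080F1 (1537 ± 96.9, SD, n = 3) and lowest in CC079F1 (779.7 ± 82.9, SD, n = 4; adjusted p = 0.0293). Their 3 and 4 tumors did not overlap, at 1442 to 1636 and 670.1 to 866.6. Col9a3 ranged from 191.4 to 276.8 in line means (adjusted p = 0.0449).

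Other members stayed level in CC036F1: Col3a1, Col5a1, Col16a1 and Col18a1 had means there of 98.9%, 96.3%, 99.3% and 98.6% of the other tumors, and Col6a3 of 113%. Without CC036F1, chosen after seeing the data, the test over the 5 remaining lines called 4 members, beside 7.18% of all genes: Col14a1 (adjusted p = 0.00501), Col5a2 (0.00501), Col5a1 (0.0119) and Col4a1 (0.0407). Col1a1 (0.932), Col1a2 (0.925), Col15a1 (0.712), Col13a1 (0.714) and Col12a1 (0.436) no longer passed. Single tumors moved the count as well: it was 18 without CC075F1 isotype 2 (19.4% of all genes), with Col3a1, Col6a1, Col6a2, Col4a5, Col7a1, Col27a1 and Col28a1 added, and 7 without CC079F1 aPD1 2 (15.6% of all genes), where Col5a1, Col5a2, Col9a3 and Col14a1 were lost. Leaving out single tumors ended the call for Col5a2 in 17 of 23 cases (adjusted p up to 0.104), for Col9a3 in 17 (up to 0.147) and for Col14a1 in 6 (up to 0.162). Col12a1 was lost without CC002F1 aPD1 1 (0.0525), CC036F1 isotype 2 (0.0754), CC036F1 aPD1 1 (0.0732) or CC036F1 aPD1 2 (0.122), and Col1a1 without CC036F1 aPD1 1 (0.0952) or CC036F1 aPD1 2 (0.072). No single omission ended the calls of Col1a2, Col4a1, Col4a2, Col13a1 or Col15a1.

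**Figure D4:**
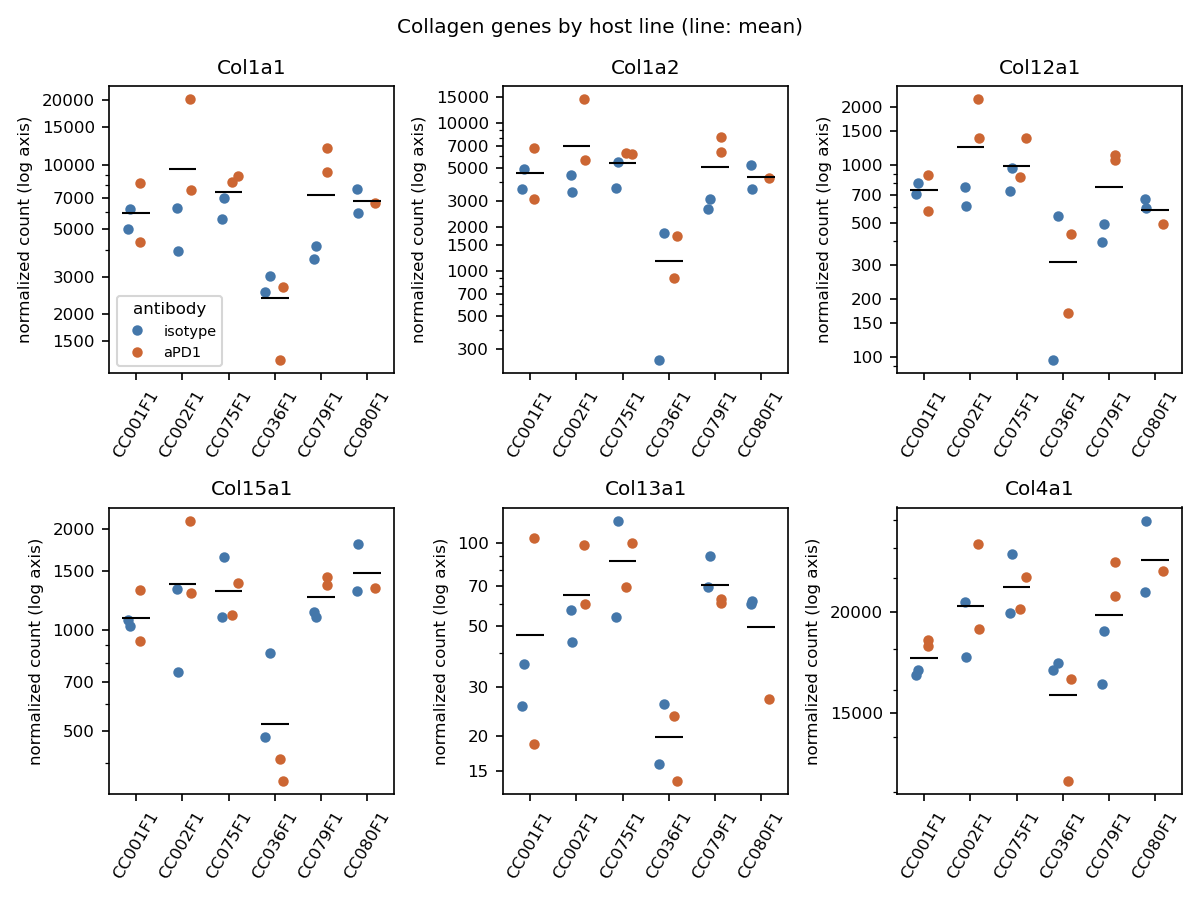
Normalized counts of Col1a1, Col1a2, Col12a1, Col15a1, Col13a1 and Col4a1 (log axes) by host line; points are tumors colored by antibody and lines are means. All 4 CC036F1 tumors lie below every other tumor for Col1a1 (1223 to 3032) and Col1a2 (251.9 to 1819).

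Markers of vessels and other cells were low in CC036F1 too. In the test over lines, which 16% of all genes passed, all 6 endothelial markers passed. All 6 had their lowest line mean in CC036F1, as Pecam1 did with 796.9 normalized counts beside 1378 to 1839. Their summed level was 28.3 to 58.1 TPM in CC036F1 tumors and 59.2 to 106.9 TPM in the others, and none was at 0 in any tumor. Of 6 pericyte and smooth muscle markers, 2 passed (Acta2 and Rgs5) and 5 were lowest in CC036F1. Their summed level was 37.4 to 75.5 TPM in that line and overlapped the 55.6 to 124.9 TPM of the others.

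Of 8 fibroblast markers 5 passed, and 4 of the 8 (Fap, Postn, Bgn and Thy1) were lowest in CC036F1. The summed fibroblast level in CC036F1 (745.4 to 1153 TPM) lay within the range of the other lines (665.8 to 1347 TPM). The 5 adipocyte markers were all lowest in CC036F1, with 6.61 to 10.6 TPM in sum and 2 past the test, and Adipoq, Plin1, Cidec and Lep were at 0 in 4, 3, 3 and 13 tumors. Skeletal muscle markers, 3 of 5 past the test, summed to 0.266 to 370.3 TPM over all tumors, and 0.266 to 2.25 TPM in CC036F1. Of the 4 leukocyte markers all passed, and 1 cartilage marker (Hapln1) but none of the skin, Schwann cell or epithelial lists did. Of the 4 MC38 and epithelial markers 3 (Krt8, Krt18 and Epcam) had their lowest line mean in CC036F1. The part of these cells in the collagen values was not tested.

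The antibody comparison asked whether collagens differed 48 h after aPD1. Over all 6 lines, with line in the fit, DESeq2 called none of 33 members with an adjusted p, beside 2.79% of all genes (2.55% higher and 0.234% lower). At an unadjusted p under 0.05 there were 3 (Col1a1, Col1a2 and Col11a1), and edgeR called none of 43, with 5 at an unadjusted p under 0.05. Counts at an unadjusted p are not calls. In the antibody results they are given without the share of all genes at that level. The 21 members with a mean of 100 or more had log2 differences, aPD1 minus isotype, from -0.24 (Col3a1, SE 0.25) to 0.66 (Col1a2, SE 0.28), with a median of 0.02.

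Col1a2 had 251.9, 3573 and 5482 normalized counts in the 12 isotype tumors (lowest, median and highest) and 894.3, 6229 and 14581 in the 11 aPD1 tumors. The groups overlapped, and its adjusted p was 0.227. Line by line, the mean log2 difference was 1.21 in CC002F1, 1.34 in CC079F1, 0.87 in CC036F1, 0.49 in CC075F1, 0.13 in CC001F1 and -0.02 in CC080F1. Col1a1 differed by 0.53 (SE 0.24, adjusted p = 0.28) and Col12a1 by 0.49 (SE 0.27, adjusted p = 0.411). Without CC036F1 isotype 1, 2 members passed over all lines, Col1a2 and Col12a1. The share of all genes called without that tumor is not given here, so this is not read as particular to collagens.

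Col3a1 went different ways in different lines, with a mean log2 difference of 1.11 in CC002F1 and -1.43 in CC075F1, where the isotype tumors had 66225 and 149509 normalized counts and the aPD1 tumors 25657 and 53487. Col6a1 had the same signs, 0.63 and -0.85. With 2 tumors per group these line values carry no test. Col11a1, a fibrillar collagen with a mean of 11.4 normalized counts, had a difference of 1.62 (SE 0.64, adjusted p = 0.164).

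Within R lines none of 31 members passed, beside 5.26% of all genes (4.85% higher and 0.408% lower), with 5 at an unadjusted p under 0.05 (Col18a1, Col1a1, Col1a2, Col5a3 and Col12a1). edgeR called none, with 6 at an unadjusted p under 0.05. Col18a1 came nearest, at 0.38 (SE 0.15, adjusted p = 0.125). Its R isotype tumors had 1302, 1436, 1120, 1146, 1340 and 1865 normalized counts and its R aPD1 tumors 1897, 2155, 2242, 1563, 1543 and 1353, so the groups overlapped. Without CC075F1 isotype 2, Col18a1 and Col5a3 passed. Leaving out CC075F1 aPD1 1 let Col5a3 pass, CC075F1 aPD1 2 let Col18a1 pass, and CC001F1 aPD1 1 let Col12a1 pass. In the deep libraries alone Col18a1 passed. The shares of all genes called in these settings are not given here, so these calls are not read as particular to collagens.

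Within NR lines none of 43 members passed, beside 0.0448% of all genes (0.0407% higher and 0.00407% lower), with 2 at an unadjusted p under 0.05 (Col4a5 and Col23a1). edgeR called none, with 4 at that level. The difference between the antibody effects in R and NR lines passed for none of 43 members, beside 0.0342% of all genes (0.019% higher and 0.0152% lower), with 3 at an unadjusted p under 0.05 (Col18a1, Col20a1 and Col23a1). edgeR called none of 43 for it, with 4 at that level. The largest difference among the 21 members was that of Col18a1, at 0.53 (SE 0.20, adjusted p = 0.481), and it passed without CC075F1 isotype 2. The share of all genes called without that tumor is not given here. The R, NR and all-line comparisons share tumors.

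**Figure D5:**
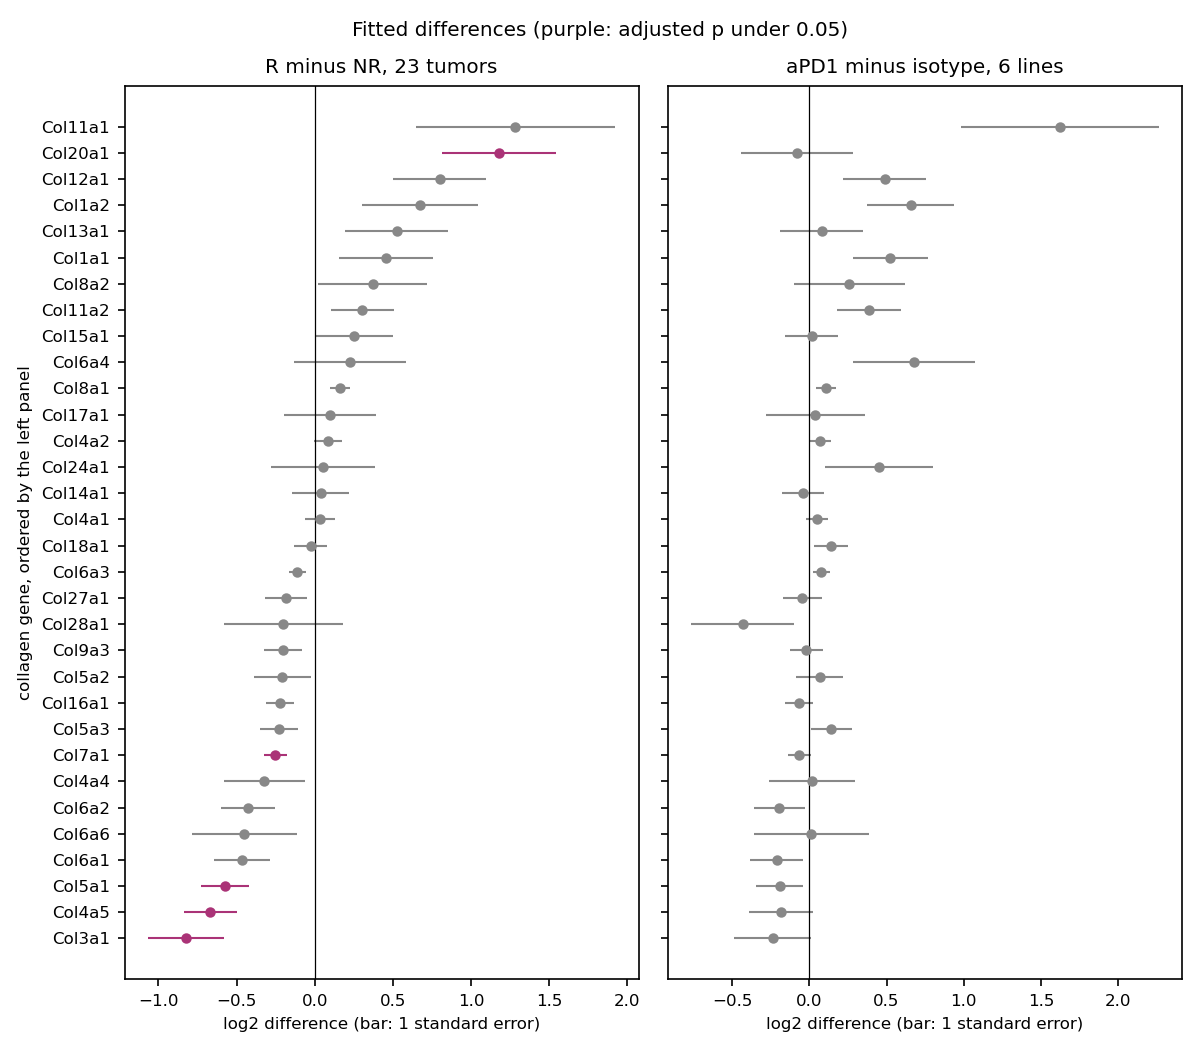
Fitted log2 differences with 1 standard error for the 32 collagen genes with a mean normalized count of 10 or more, for R minus NR (left) and aPD1 minus isotype (right), ordered by the left panel; purple points have an adjusted p under 0.05. On the left Col3a1, Col4a5, Col5a1 and Col7a1 lie below 0 and Col20a1 above it, and on the right no point is purple.

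Collagen chains pass through a shared machinery of hydroxylases, chaperones and export factors before they leave the cell. Of 21 such genes 8 (38.1%) were called between R and NR tumors, all lower in R. Of all genes 14.4% were called in either direction and 6.78% lower. The list had a median log2 difference of -0.11. Plod2, a lysyl hydroxylase for fibril crosslinks, differed by -0.44 (SE 0.09, adjusted p = 1.89e-05), P4hb, a subunit of prolyl 4-hydroxylase, by -0.16 (SE 0.04, adjusted p = 0.000278), and Sec23a, a coat protein of export vesicles, by -0.21 (SE 0.05, adjusted p = 0.000385). In the test over lines 9 of 21 passed (42.9%, beside 16% of all genes). Here CC036F1 was the highest line for Plod2 (16356 normalized counts beside 9940 to 12545) and P4ha2, another prolyl 4-hydroxylase subunit (2541 beside 1060 to 1308), in contrast to its low Col1a1 and Col1a2.

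Among crosslinking and processing enzymes, 2 of 11 with an adjusted p were called between R and NR tumors (18.2%, beside 14.4% of all genes). Bmp1, which cleaves the C-propeptide of procollagens, was lower in R (-0.35, SE 0.09, adjusted p = 0.00377). The lysyl oxidase Loxl2 was higher (0.41, SE 0.15, adjusted p = 0.041). Its line means overlapped, with 385.9 in the R line CC075F1 and 387.2 in the NR line CC080F1. Over lines 4 of 11 passed (Lox, Loxl1, Loxl2 and Adamts2), or 36.4% beside 16% of all genes. Loxl2 (231.9 beside 347.8 to 458.8), Loxl1 (69.7 beside 141.7 to 229.6) and Adamts2, which removes the N-propeptide (84.9 beside 205.0 to 299.7), had their lowest line mean in CC036F1.

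Of the collagen receptors, 3 of 9 were called between R and NR tumors (33.3%, beside 14.4% of all genes). Lair1, an inhibitory receptor of leukocytes that binds collagen, was higher in R (0.58, SE 0.12, adjusted p = 7.49e-05), while Itgb1, the beta chain of the collagen-binding integrins (-0.12, SE 0.03, adjusted p = 0.00126), and the receptor kinase Ddr1 (-0.25, SE 0.08, adjusted p = 0.0219) were lower. The line means of Ddr1 overlapped, with 1273 in the NR line CC079F1 and 1176 to 1296 in the R lines. Over lines 5 of 9 passed (55.6%, beside 16% of all genes). Itga1, the collagen IV receptor chain, was lowest in CC036F1 (247.0 beside 432.7 to 577.6 normalized counts).

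Of the matrix proteases and their inhibitors, 4 of 13 were called between R and NR tumors (30.8%, beside 14.4% of all genes). Of these 1 was higher and 3 were lower in R. Mmp2, a gelatinase that degrades collagen IV and denatured collagen, was lower in R (-0.59, SE 0.11, adjusted p = 3.72e-06), as were Mmp11 (-0.44, SE 0.10) and the inhibitor Timp2 (-0.19, SE 0.07). Over lines 8 of 13 passed (61.5%, beside 16% of all genes). The interstitial collagenase Mmp13 had its highest mean in CC001F1 (1935 normalized counts, beside 214.7 to 921.4).

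Of 19 partners of collagen in the matrix, 2 were called between R and NR tumors (10.5%, a lower share than the 14.4% of all genes). Fibronectin (Fn1) was lower in R (-0.32, SE 0.11, adjusted p = 0.0404) and tenascin C (Tnc) higher (0.90, SE 0.32, adjusted p = 0.0415). CC036F1 was the extreme line for both. Line means of Fn1 were 45337 to 56201 in R lines, and 74272 (CC036F1), 57679 (CC079F1) and 57205 (CC080F1) in NR lines. Those of Tnc were 872.5 to 1384 in R lines, and 267.5, 793.3 and 520.1 in the same NR lines. Over lines 9 of 19 passed (47.4%, beside 16% of all genes). The basement membrane genes Nid1 (611.0 beside 1269 to 1623), Nid2 (420.7 beside 778.2 to 1047) and Lama4 (518.8 beside 930.1 to 1301) had their lowest line means in CC036F1, the line with the lowest Col4a1, Col4a2 and Col15a1. Other basement membrane genes of the list did not pass over lines: Lama5 (adjusted p = 0.508), Lamb1 (0.895), Lamc1 (0.862) and Hspg2 (0.948). Fn1 passed over lines (adjusted p = 0.0198) and had its highest line mean in CC036F1. By antibody over all lines, 1 gene of these 5 lists passed, beside 2.79% of all genes. It was Creb3l1, a transcription factor known to act on collagen genes.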

How the data were processed

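The authors deposited estimated counts per gene, made per the labels and the study's methods from 100 bp paired reads of poly(A) libraries (KAPA mRNA HyperPrep, NovaSeq) aligned with Bowtie 1.2.3 to strain-specific versions of GRCm38 with GENCODE gene models. These expected counts, of which 16.95% were not whole, were rounded to whole numbers. GENCODE vM21 gave symbols for 26681 of 26869 identifiers.

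The main tests were DESeq2 1.42.0 fits (R 4.3.3) on all genes with at least 5 summed counts, with Benjamini-Hochberg adjusted p under 0.05 over all genes. Class was fitted with antibody, antibody with host line, and host line by a likelihood ratio test. Genes that DESeq2's own filter left without an adjusted p were not counted as tested. Alternatives were edgeR 4.0.16 (quasi-likelihood), limma 3.58.1 with line as random effect, other count filters and scalings, the deep libraries alone and depth as a term. Further ones were counts summed per line and antibody, a replicate block and leaving out each tumor. Scripts were tested on simulated data. TPM used the longest coding transcript.

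Host lines were classed R or NR from the study's text. Members past the threshold in any comparison, the 3 of highest TPM in each class and their chain partners were named with values, and up to 3 called genes of smallest adjusted p per companion list. Other genes, such as Creb3l1, Mmp13 and P4ha2, were named after their values were seen. The members and lists were chosen with earlier results of these data known. Protein sequences were not used here.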

Additional observations from a re-analysis of the deposited data

Results flagged for a closer look

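In 10 of 112 sets of values (a gene or chain ratio in the 5 or 6 tumors of a class and antibody), 1 tumor lay far from the others by Dixon's criterion, which chance meets in about 1 of 20 sets. The sets share tumors, mix host lines and include genes that moved together. They are therefore not independent, and the 10 is not read as an excess over chance. Of the isotype tumors of R lines, CC075F1 isotype 2 was highest by such a gap for 6 collagens. It had 149509 normalized counts of Col3a1 (33319 to 71024 in the other 5), 29781 of Col5a1 (12467 to 18209), 2722 of Col5a2 (1627 to 1849), 965.6 of Col4a5 (346.6 to 474.3), 72780 of Col6a1 (25903 to 42659) and 120.5 of Col13a1 (25.76 to 57.44).

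Of the aPD1 tumors of R lines, CC002F1 aPD1 1 was highest, with 20278 normalized counts of Col1a1 (4332 to 8828 in the other 5), 14581 of Col1a2 (3077 to 6826) and 3612 of Col5a2 (1555 to 2325). Of the isotype tumors of NR lines, CC036F1 isotype 2 had a Col1a1 to Col1a2 count ratio of 10.07 (1.351 to 1.667 in the other 5).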

How the results depend on the processing

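Between R and NR tumors the count of 5 collagens was 4 with edgeR, 4 with limma (3 of them among the 5), 1 in the deep libraries and 9 without CC036F1, and 4 to 8 when single tumors were left out; it was 4 without CC075F1 isotype 1, where Col20a1 had no adjusted p. In isotype tumors the count of 1 was 0 with edgeR, in the deep libraries and with limma, and 2 without CC036F1, with 1 to 11 over single tumors. The shares of all genes called there were 0.122%, 0.222%, 0.0122% and 2.48% in that order, beside 5.53% in the main fit. Over all tumors the shares were 6.7% with edgeR, 6.16% with limma, 9.83% in the deep libraries and 10.9% without CC036F1, beside 14.4%. In aPD1 tumors the count of 3 was 1 with edgeR, 0 with limma and 6 without CC036F1, with 1 to 6 over single tumors. For the antibody, single tumors gave 0 to 2 over all lines, 0 to 2 in R lines (1 in the deep libraries), 0 to 0 in NR lines and 0 to 1 for the difference. For host lines the count of 11 was 7 with edgeR, 7 in the deep libraries and 4 without CC036F1, with 7 to 18 over single tumors. Shares of all genes in these settings are not given here for the aPD1, antibody and host line counts. Moves of those counts are not read as particular to collagens. For chain ratios the count of 2 was 0 in the deep libraries and 1 to 2 over single tumors, and the near-zero antibody difference of Col6a1 to Col6a2 (-0.006) lay between -0.022 and 0.010 and changed sign without CC002F1 isotype 2 (0.001), CC002F1 aPD1 2 (0.000), CC075F1 isotype 2 (0.010) or CC036F1 isotype 2 (0.007). The cause of these moves was not tested. Leaving out CC036F1 was chosen after seeing the data.

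With the replicate number as a block, the count in isotype tumors was 4. The numbers did not pair the tumors: over 55 pairs of groups the correlation of same-numbered deviations ranged from -0.404 to 0.368 (median -0.009), with 14 above 0.1.

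Depth limits the 12 members with a mean under 10 normalized counts: none was called in a comparison of the report, and a difference in them may have gone undetected at this depth.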
